A study of Sus scrofa with 24 samples.

Results

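The genes described here move membrane between compartments: the RAB, ARF and ARL small GTPases, the VPS genes, the sorting nexins (SNX) and the CHMP subunits. They were taken as every probe set whose symbol in the platform annotation was RAB, ARF or ARL with a number and at most 1 further letter, or began with VPS, SNX or CHMP, whatever its values. That gave 75 genes of the 6765 that the annotation names, on 116 of the 23999 probe sets that are not array controls. A filter on dim probe sets, which leaves out the lowest 25% by mean over all arrays, kept 108 of them, for 72 genes. RAB13, RAB15 and RAB26 each had 1 probe set and fell under it, as did 1 of the probe sets of RAB3D, VPS11, VPS28, VPS13C and RAB23. VPS72 entered by its name alone, since its product is a subunit of a chromatin remodelling complex. RAB5A, RAB27A, RAB31, VPS35, VPS4B, SNX2 and CHMP4B were not among the annotated probe sets used here.

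RNA came from peripheral blood mononuclear cells, the lymphocytes and monocytes that a density gradient separates from blood, of 24 pigs measured with 1 Affymetrix porcine array each. The 6 groups were of 4 pigs (2 of each sex), and feeding lasted 4 months. AD-GE pigs ate an atherogenic diet with grape extract at 1 g per 70 kg of body weight, and AD-GE-RES pigs the same diet with a resveratrol-enriched grape extract, at 1 g of extract carrying 18 mg of resveratrol. AD-RES pigs ate it with 18 mg of resveratrol alone, and AD pigs ate it with no supplement. CT-GE-RES pigs ate standard commercial chow with the enriched extract, and CT pigs the chow alone. The fats of the atherogenic diet were coconut oil at 10% and beef tallow at 5.5%, and it also held cholic acid at 1%. Age and breed are not stated in the labels.

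A Rab, ARF or ARL protein is a switch that sits on its membrane when bound to GTP and recruits the motors, tethers and coats that the next transport step needs. The CORVET and HOPS tethers hold endosomes and lysosomes together for fusion, retromer and its sorting nexins return receptors from endosomes to the Golgi and the cell surface, and the ESCRT complexes, which end in the CHMP filaments and the VPS4 ATPase, cut vesicles off into the endosome. In blood cells these routes serve phagosome maturation and antigen presentation in monocytes, the release of granules by cytotoxic cells and platelets, and the turnover of surface receptors in lymphocytes.

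Values are log2 intensities and differences are log2 differences unless stated, and the intensity of one probe set is not comparable with that of another. The members tested had a median intensity of 7.32, and 6.32 was the median of all 17999 probe sets tested. Their median SD within a diet group was 0.225, and 0.224 was that of all probe sets. Among the members the spread ran from 0.09 for VPS29, a core subunit of retromer, and 0.10 for SNX3, a cargo adaptor of retromer, up to 0.63 for one of the 2 RAB32 probe sets and 1.05 for RAB27B, a Rab of secretory granules. The log2 ratio of 3' to 5' signal on the control transcripts (the 3'/5' ratio), a sign of how complete the labelled RNA was, ran from 1.37 to 4.39 over the arrays. The array of CT animal 4 had the highest ratio. Means of marker genes, fixed as lists and centred on the mean of all arrays, ran from -1.02 to 0.68 for monocytes and from -1.51 to 1.66 for platelets, cells that a mononuclear preparation carries in part. All 15 measured monocyte genes, all 9 T cell genes, all 5 B cell genes and all 10 platelet genes lay above the filter, ITGAM of the monocyte list only just (3.58, against 3.57). Of the 7 cytotoxic and NK genes 6 did, and FASLG, at 2.74, lay under it but stayed in the mean. In bulk RNA, fewer cells of a type and less RNA per cell cannot be told apart.

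A panel of 22 widely used traffic genes gives the levels, and 14 of them were measured. The span between the lowest and the highest of the 6 group means was 0.13 for SNX3, with 11.99 ± 0.09 in AD-GE at the low end and 12.12 ± 0.17 in CT at the high end (SD, n = 4 each). It was 1.07 for RAB27B, with 6.35 ± 0.89 in AD at the low end and 7.42 ± 0.66 in CT-GE-RES at the high end. For CHMP5, an ESCRT-III subunit, the span was 0.83, and for RAB32, a Rab of lysosome-related organelles, it was 0.74. AD-GE had the lowest mean for 7 of the 14 genes: RAB7A, RAB1A, RAB32, VPS26A, SNX1, SNX3 and CHMP5. The Golgi GTPase ARF1, the ESCRT-I subunit VPS28 and the ESCRT-III subunit CHMP2A were lowest in CT, with means of 10.88 ± 0.23, 8.79 ± 0.75 and 10.32 ± 0.40. VPS28 and CHMP2A were low there in animal 4 alone.

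The grape extract group was set against AD, which asks what grape extract did on the atherogenic diet. Among the 5 comparisons of 1 group with another, this one held the member with the smallest unadjusted p. RAB18, a GTPase of the endoplasmic reticulum and lipid droplets, had 9.13, 9.07, 8.84 and 9.01 in AD-GE, against 9.41, 9.57, 9.54 and 9.64 in AD. Every AD-GE animal lay below every AD animal. The difference was -0.53 (SE 0.11, 95% interval -0.76 to -0.29, unadjusted p = 0.000144, limma adjusted p = 0.520). CHMP5 had 7.83, 7.90, 7.90 and 8.25 in AD-GE, against 8.56, 8.82, 8.59 and 8.57 in AD, again without overlap, a difference of -0.66 (SE 0.15, limma adjusted p = 0.541). RAB1A, which drives transport out of the endoplasmic reticulum, had 7.62, 7.97, 7.51 and 7.76 in AD-GE by one of its 3 probe sets, against 8.20, 8.56, 8.42 and 8.26 in AD. These groups did not overlap either, with a difference of -0.64 (SE 0.15, limma adjusted p = 0.541). Another RAB1A probe set differed by -0.56 (SE 0.18), with overlap between the groups.

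Further members stood lower in AD-GE. RAB32, by the probe set that varied less, had 7.88, 8.24, 8.37 and 8.51 in AD-GE, against 8.76, 8.83, 9.05 and 8.93 in AD, a difference of -0.64 (SE 0.22). RAB7A, the Rab of late endosomes and lysosomes, had 9.45, 9.20, 9.20 and 9.24 in AD-GE, against 9.46, 9.60, 9.62 and 9.48 in AD, a difference of -0.27 (SE 0.10). In both genes the groups did not overlap, though AD-GE animal 1 came within 0.01 of the lowest AD animal for RAB7A. The difference was -0.31 (SE 0.11) for RAB10, a Rab of exocytosis and recycling (one of 4 probe sets), -0.68 (SE 0.27) for SNX24 and -0.32 (SE 0.14) for CHMP2B, an ESCRT-III subunit. VPS13D, a lipid transfer protein, was the only member higher at an unadjusted p under 0.05, with 7.34, 7.57, 7.28 and 7.22 in AD-GE, against 7.17, 6.77, 6.66 and 7.30 in AD (0.38, SE 0.16). AD animal 4 lay within the range of AD-GE, and the other AD animals below it.

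Over the set, 10 of 108 members reached an unadjusted p under 0.05 between AD-GE and AD, 1 higher and 9 lower, which is 9.26% of them, where 6.09% of all probe sets did. The 9 lower are 8.33% of the members, and 3.3% of all probe sets were lower at that level, with 2.79% higher. The groups did not overlap for 8 members, or 7.41%, and for 4.72% of all probe sets. The median difference was -0.06 over the members and 0.01 over all probe sets. limma called 0 of 17999 probe sets at an adjusted p under 0.05 (percent called 0). Monocyte markers moved in the same comparison: their list mean was -0.33 ± 0.22 in AD-GE and 0.33 ± 0.13 in AD (SD, n = 4 each), with no overlap, and 25 of 27 monocyte probe sets were lower. With that mean in the fit, a choice made after the data were seen, the difference of RAB18 was -0.52, of CHMP5 -0.48 and of the first RAB1A probe set -0.54, while that of RAB32 was -0.31 and that of the other RAB1A probe set -0.29. The count of members at an unadjusted p under 0.05 was then 6.

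**Figure D1:**
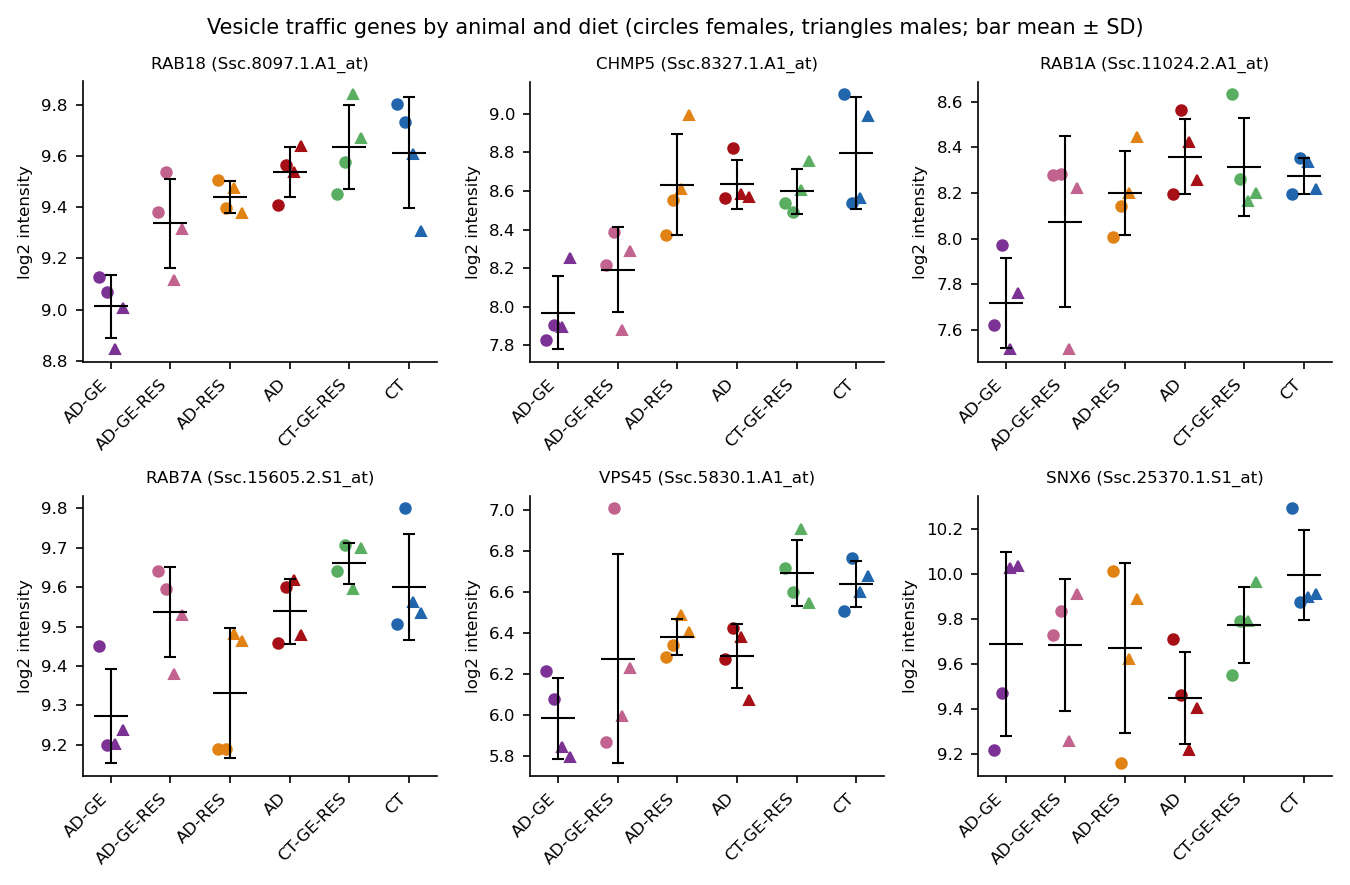
Log2 intensity (y axes) of 6 vesicle traffic genes in each animal, by diet group (x axes), with circles for females, triangles for males and a bar for the group mean ± SD (n = 4). The AD-GE animals lie below all AD animals for RAB18, CHMP5, RAB1A and RAB7A, VPS45 is lower in most animals of the atherogenic diet groups than in the chow groups, and for SNX6 the AD animals lie below the CT animals.

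The enriched extract and resveratrol alone were set against the same 4 AD animals, so the comparisons share them. In AD-GE-RES, CHMP5 had 8.22, 8.39, 7.88 and 8.29, against 8.56, 8.82, 8.59 and 8.57 in AD, without overlap (-0.44, SE 0.15, unadjusted p = 0.00808, limma adjusted p = 1). It was the only member with an unadjusted p under 0.05, or 0.926% of them, where 2.4% of all probe sets had one, 1.15% higher and 1.25% lower. The groups also did not overlap for RAB11B, a recycling Rab (-0.27, SE 0.16), and for VPS26B, a retromer subunit (-0.18, SE 0.16), so for 3 members in all (2.78%, and 1.26% of all probe sets). The second probe set of each had the opposite sign, 0.16 (SE 0.14) for RAB11B and 0.19 (SE 0.15) for VPS26B. RAB18 differed by -0.20 (SE 0.11) and RAB1A by -0.29 (SE 0.15). Higher, with p over 0.05, were ARL3, a GTPase that delivers lipidated proteins to the cilium (0.27, SE 0.15), and VPS16, a core subunit of HOPS and CORVET (0.21, SE 0.14, one of its 2 probe sets). The mean of both VPS16 probe sets differed by -0.042, so they disagreed in sign. limma called 0 of 17999 probe sets (percent called 0). The count of 1 was 5 without AD-GE-RES animal 1, 4 without AD animal 1, 3 without AD animal 3 and 2 without any one of AD-GE-RES animals 2, 3 and 4.

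In AD-RES, ARF6, the ARF of the plasma membrane and endocytic recycling, had 10.99, 10.95, 10.76 and 10.92, against 11.23, 11.28, 11.43 and 11.10 in AD. The groups did not overlap (-0.35, SE 0.13, unadjusted p = 0.0129, limma adjusted p = 0.980). RAB19, by one of its 2 probe sets, went the other way, with 7.25, 7.30, 7.23 and 7.13 in AD-RES, against 6.80, 6.61, 6.94 and 6.78 in AD (0.45, SE 0.17). RAB23, known from hedgehog signalling and cilia (one of 2 probe sets), had 5.97, 6.001, 6.46 and 6.19 in AD-RES, against 5.54, 5.38, 5.70 and 5.53 in AD (0.62, SE 0.27). Neither of these overlapped between the groups. SNX24 differed by -0.66 (SE 0.27), RAB11B by -0.34 (SE 0.14), SNX17, which sorts receptors back to the surface, by -0.29 (SE 0.12) and RAB7A by -0.21 (SE 0.10).

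Between AD-RES and AD, an unadjusted p under 0.05 was found for 8 members, 2 higher and 6 lower, which is 7.41%. Of all probe sets 4.45% had one, 1.8% higher and 2.65% lower. The groups did not overlap for 4 members (3.70%, and 2.81% of all). limma called 0 of 17999 probe sets (percent called 0). The count of 8 was 3 without AD animal 2 and 4 without AD-RES animal 2. For SNX24 the AD-RES females had 6.53 and 6.38 and the AD-RES males 7.51 and 7.64, and the females were also the animals with the lowest monocyte marker means of the group. With the monocyte mean in the fit the difference of SNX24 was -0.24 and that of RAB7A -0.13.

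On chow, the enriched extract was set against CT. ARL2, a GTPase known from tubulin folding and mitochondria, had 8.02, 7.71, 7.82 and 8.06 in CT-GE-RES, against 7.74, 7.29, 7.65 and 7.14 in CT. The groups met at CT animal 1, and the difference was 0.45 (SE 0.15, unadjusted p = 0.00723, limma adjusted p = 0.700). SNX22 had 11.29, 11.14, 11.22 and 11.05 in CT-GE-RES, against 10.77, 11.06, 10.85 and 10.36 in CT, overlapping at CT animal 2 (0.41, SE 0.14). CHMP4A, an ESCRT-III filament subunit, was higher by 0.25 (SE 0.10) and ARF1 by 0.28 (SE 0.13). VPS37D, an ESCRT-I subunit, differed by -0.29 (SE 0.11) and SNX24 by -0.60 (SE 0.27), and SNX24 was the only member without overlap. In all, 6 members (5.56%) had an unadjusted p under 0.05, 4 up and 2 down, and 6.8% of all probe sets did, 3.87% up and 2.93% down. Groups without overlap made up 0.926% of the members and 4.03% of all probe sets. limma called 0 of 17999 (percent called 0). ARL2 and ARF1 were also lower on arrays of higher 3'/5' ratio, which averaged 2.20 ± 0.89 in CT-GE-RES and 3.15 ± 1.13 in CT, and with the ratio in the fit their differences were 0.27 and 0.15. With the monocyte mean in the fit that of SNX24 was -0.36. The count of 6 was 13 without CT animal 1, 11 without CT animal 2 and 3 without CT animal 4.

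AD against CT asks how the cells responded to the high-fat diet. SNX6, a sorting nexin of the retromer coat, had 9.71, 9.46, 9.22 and 9.40 in AD by one of its 4 probe sets, against 10.29, 9.87, 9.90 and 9.91 in CT. The groups did not overlap, and the difference was -0.54 (SE 0.20, unadjusted p = 0.0127, limma adjusted p = 0.757). CT animal 1 stood well above the other CT animals. VPS45, which regulates fusion at endosomes and whose loss causes an inherited neutropenia in humans, had 6.27, 6.43, 6.38 and 6.07 in AD, against 6.51, 6.77, 6.60 and 6.68 in CT, without overlap (-0.35, SE 0.17). SNX22 was higher by 0.31 (SE 0.14). Those with p under 0.05, SNX6 and SNX22, made up 1.85% of the members, where 6.38% of all probe sets had such a p, 3.25% higher and 3.13% lower. Groups did not overlap for 1.85% of the members and 2.74% of all probe sets. limma called 0 of 17999 (percent called 0). The count of 2 was 14 without CT animal 1, 9 without AD animal 1, 5 without CT animal 2 and 4 without CT animal 3 or AD animal 3.

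More members stood apart when all 16 animals of the 4 atherogenic groups were set against all 8 animals of the 2 chow groups. Grape extract alone and resveratrol alone were given only on the atherogenic diet, so this contrast does not separate the diet from the supplements. RAB18 had a lowest, median and highest value of 8.84, 9.39 and 9.64 on the atherogenic diets, against 9.31, 9.64 and 9.84 on chow, and 15 of the 16 atherogenic animals lay under the chow median. The difference was -0.29 (SE 0.07, limma adjusted p = 0.0810). VPS45 had 5.80, 6.25 and 7.01 on the atherogenic diets, against 6.51, 6.64 and 6.91 on chow, again with 15 of 16 animals under the chow median, and AD-GE-RES animal 2 the one above all chow animals (-0.43, SE 0.10, limma adjusted p = 0.0884). CHMP5 differed by -0.34 (SE 0.09, limma adjusted p = 0.104) and RAB7A by -0.21 (SE 0.06, limma adjusted p = 0.116). These 4 differences had the same sign in both sexes: RAB18 differed by -0.27 in females and -0.32 in males, and VPS45 by -0.33 and -0.53. RAB18, CHMP5 and RAB7A had their lowest group means in AD-GE, with 7.97 for CHMP5 and 9.27 for RAB7A. For RAB18 every AD-GE animal lay below every AD animal, so the 4 atherogenic groups did not share its difference evenly.

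None passed the adjusted threshold. limma called 0 of 17999 probe sets (percent called 0), with 2737 at an unadjusted p under 0.05. At that level 22 members, for 19 genes, were lower, which is 20.4% of the 108, where 8.75% of all probe sets were lower. Only 2 were higher, or 1.85%, where 6.46% of all were higher: RAB22A of early endosomes (0.17, SE 0.07) and one of the 4 RAB10 probe sets (0.15, SE 0.07). Another RAB10 probe set differed by -0.30 (SE 0.13), so probe sets of this gene disagreed in sign. Leaving out AD-GE-RES animal 2 brought RAB18 and VPS45 under the adjusted threshold. So did the monocyte mean in the fit, a choice made after the data were seen (limma adjusted p = 0.0486 for RAB18 and 0.0424 for VPS45). How many of all probe sets passed in either fit was not tallied, so these calls are not a result about the members. Between AD and CT alone, both without a supplement, 0.926% of the members were lower at an unadjusted p under 0.05, and 3.13% of all probe sets.

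**Figure D2:**
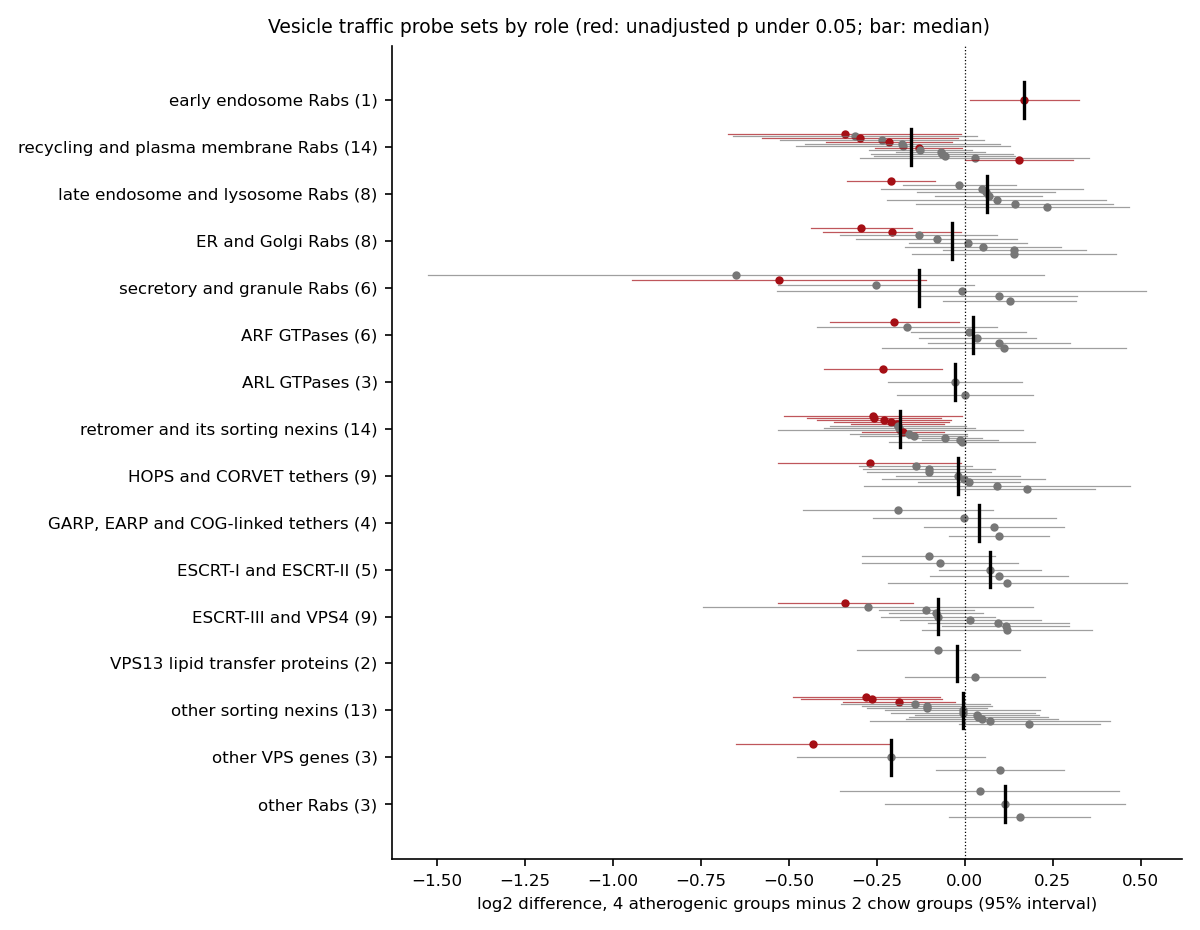
Log2 difference (x axis) between the 4 atherogenic and the 2 chow groups for each of the 108 probe sets of vesicle traffic genes, by role (y axis, number of probe sets in brackets). Points are probe sets, thin lines their 95% intervals and black bars role medians; red marks an unadjusted p under 0.05. All 14 retromer probe sets lie below 0, while the early endosome Rab and the 3 other Rabs lie above it and the remaining roles on both sides.

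Within this comparison the retromer and its sorting nexins are described by counts alone, with no test of the role. All 14 probe sets of the 7 genes had a negative difference, with a median of -0.185, where 61.1% of the 108 members and 48.4% of all probe sets had one. An unadjusted p under 0.05 was found for 6 of the 14, or 42.9%, where 8.75% of all probe sets were lower at that level. SNX6 alone gave 4 of these 6, with differences of -0.18 (SE 0.06), -0.19 (SE 0.06), -0.26 (SE 0.09) and -0.26 (SE 0.12) from its 4 probe sets. For 3 of the 4, 15 of 16 atherogenic animals lay under the chow median. SNX5, a partner of SNX6 in the same coat, differed by -0.21 (SE 0.08), and VPS26B by -0.23 (SE 0.09), each by one of its 2 probe sets. The other probe sets of the role had p over 0.05, among them these: SNX1, a membrane-bending nexin, differed by -0.19 (SE 0.10), SNX3 by -0.06 (SE 0.05) and VPS29 by -0.01 (SE 0.05). The probe sets of 1 gene share a transcript, and so 14 probe sets are not 14 independent genes. In the comparison of AD with CT alone, 11 of the 14 had a negative difference (78.6%, and 49.6% of all probe sets), with a median of -0.13, and 1 was lower at an unadjusted p under 0.05 (7.14%, and 3.13% of all).

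The other roles were mixed on the atherogenic diets. Among the recycling and plasma membrane Rabs 12 of 14 probe sets had a negative difference (85.7%, and 48.4% of all probe sets), with a median of -0.15. Of the 14, 4 were lower at an unadjusted p under 0.05 (28.6%, and 8.75% of all), again with no test of the role: RAB10, RAB11B (-0.22, SE 0.09), RAB8A of exocytosis (-0.34, SE 0.16) and RAB35 of endocytic recycling (-0.13, SE 0.06). Of the 8 probe sets for late endosome and lysosome Rabs, RAB7A and one for RAB9A had negative differences and 6 positive ones, with p over 0.05 for all but RAB7A. ARL1, which holds golgins at the trans-Golgi, differed by -0.23 (SE 0.08), and ARF4, a Golgi ARF, by -0.20 (SE 0.09). Of the 5 ESCRT-I and ESCRT-II probe sets none had an unadjusted p under 0.05, and of the 9 for ESCRT-III and VPS4 only CHMP5 did. SNX10, known from osteoclast endosomes, differed by -0.28 (SE 0.10), SNX8 by -0.26 (SE 0.10, one of 2 probe sets, 16 of 16 atherogenic animals under the chow median) and RAB3D, a Rab of secretory granules, by -0.53 (SE 0.20).

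Platelet markers differed along with these: 11 of 15 platelet probe sets were lower on the atherogenic diets, with a median of -0.58, 5 of them at an unadjusted p under 0.05, and the list mean was -0.22 there and 0.45 on chow. The 3'/5' ratio averaged 2.31 on the atherogenic diets and 2.68 on chow. With the platelet mean as a further term the differences of RAB18, VPS45, CHMP5 and RAB7A were -0.32, -0.46, -0.32 and -0.18, and with the ratio instead they were -0.29, -0.40, -0.35 and -0.20. It moved others by more: RAB3D differed by -0.15 (SE 0.11) with the platelet mean in the fit, against -0.53 without it. VPS11 differed by -0.07 with it and -0.27 without it, RAB1A by -0.11 and -0.21, ARF4 by -0.09 and -0.20, and RAB10 by -0.17 and -0.30, and the p of these 5 was then over 0.05. So was that of RAB8A (-0.37, limma unadjusted p = 0.0504) and of one SNX6 probe set (-0.27, limma unadjusted p = 0.0656). Over the set 19 members were lower at an unadjusted p under 0.05 with the platelet mean, where 8.66% of all probe sets were. Some of these 19 were not lower at that level without it. The platelet mean as a covariate was chosen after the data were seen.

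The machinery around these genes was read from lists in the same comparison, in which 8.75% of all probe sets were lower and 6.46% higher at an unadjusted p under 0.05. No list was tested as a whole. Of 46 probe sets for coats and adaptors, 13 were lower (28.3%) and 1 higher (2.17%) at that level, with AP2B1 (-0.56, SE 0.10, limma adjusted p = 0.0606), AP2M1 (-0.33, SE 0.07) and AP2S1 (-0.34, SE 0.09), all subunits of the clathrin adaptor at the plasma membrane, giving the smallest p. Of 31 for SNAREs and fusion factors 8 were lower (25.8%) and 0 higher, led by STX11, a SNARE of cytotoxic granule release (-0.63, SE 0.19), and SNAP29 (-0.19, SE 0.07). Rab cycle regulators had 5 lower (13.5%) and 3 higher (8.11%) of 37, among them the RAB8 exchange factor RAB3IP (0.43, SE 0.13) and the Rab GTPase-activating protein TBC1D10B (-0.31, SE 0.08). Rab effectors had 3 lower (16.7%) and 0 higher of 18. ARF regulators had 2 lower (5.56%) and 1 higher (2.78%) of 36, both shares below those of all probe sets. ESCRT partners had 2 lower of 12 (16.7%), including the deubiquitinase USP8 (-0.33, SE 0.11). A mixed list of partners of retromer and of the WASH and Commander complexes had 1 lower of 19 (5.26%, below the share of all), COMMD2 of Commander (-0.20, SE 0.07). The median over the coats was -0.06, and 0.01 was that of all probe sets.

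A test of any difference among the 6 diets called 0 of 17999 probe sets with limma (percent called 0), with 11 members (10.2%) and 9.16% of all probe sets at an unadjusted p under 0.05. CHMP5 (unadjusted p = 0.000127, limma adjusted p = 0.262), RAB18 (0.262), RAB7A (0.360) and RAB1A (0.363) led the members. The mean of CHMP5 was 7.97 ± 0.19 for AD-GE, 8.19 ± 0.22 for AD-GE-RES, 8.63 ± 0.26 for AD-RES, 8.63 ± 0.13 for AD, 8.60 ± 0.11 for CT-GE-RES and 8.80 ± 0.29 for CT (SD, n = 4 each). Both groups given grape extract on the atherogenic diet had the lowest means, and that of CT-GE-RES was next, within 1 SD of AD-RES and AD. Whether the enriched extract acted differently on the 2 diets was tested directly: limma called 0 of 17999 (percent called 0), and 4 members had an unadjusted p under 0.05, all negative, or 3.70%, where 3.12% of all probe sets did and 1.75% were negative. These were ARL2 (-0.54, SE 0.21), SNX22 (-0.49, SE 0.20), RAB19 (-0.54, SE 0.25) and ARF1 (-0.40, SE 0.18), and their number ran from 1 to 12 with each animal left out. This RAB19 probe set is not the one named for AD-RES, which had -0.03 (SE 0.25) here. Once the fit held the 3'/5' ratio, 0 members had such a p, where 0.922% of all probe sets were negative at that level, and the 4 values were -0.28 for ARL2, -0.33 for SNX22, -0.43 for RAB19 and -0.21 for ARF1.

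Sex was tested across all groups. limma called 48 of 17999 probe sets between males and females, or 0.267%, and 0 of the 108 members, of which 7 (6.48%) had an unadjusted p under 0.05, where 10.3% of all did. VPS16 (-0.21, SE 0.08), RAB24, a Rab linked to autophagy (-0.22, SE 0.09), SNX14 (-0.24, SE 0.10) and VPS52, a tether of endosome to Golgi transport (-0.29, SE 0.12), each lower in males by the probe set named, had the smallest p. Other probe sets had the opposite sign, with 0.04 (SE 0.09) for SNX14 and 0.10 (SE 0.09) and 0.03 (SE 0.06) for VPS52. The difference between AD and CT was compared between the sexes. There limma called 21 probe sets, or 0.117%, and 0 members. Of the members 17 (15.7%) had an unadjusted p under 0.05 in either direction, and 14.9% of all probe sets did. The difference was more positive in males for 14 of these 17 and more negative for 3. At that level it was more positive in males for 8.94% of all probe sets and more negative for 5.98%. CHMP2B differed between AD and CT by 0.66 in males and -0.17 in females, an interaction of 0.83 (SE 0.24, limma adjusted p = 0.150). The interactions of RAB23, SNX14 and CHMP1B, an ESCRT-III subunit, each by one of 2 probe sets, were 1.03, 0.81 and 0.92. The other probe set of each had 0.69 (SE 0.41), -0.09 (SE 0.35) and 0.94 (SE 0.57), so those of SNX14 disagreed in sign. Each sex had 2 animals a group, so a fit without 1 of them leaves a single animal of that sex in the group. With each AD or CT animal left out in turn, the interaction ran from 0.62 to 1.05 for CHMP2B and from 0.60 to 1.01 for the SNX14 probe set first given.

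Some members varied across animals along the platelet markers. For every unit of the platelet marker mean, in a fit with diet group, sex and the 3'/5' ratio, RAB27B was higher by 1.18 (SE 0.15, limma adjusted p = 2.41e-05) and RAB3D by 0.57 (SE 0.07, limma adjusted p = 1.91e-05). RAB11A, the Rab of recycling endosomes, was higher by 0.37 (SE 0.06, limma adjusted p = 0.000254) and VPS11, a core subunit of HOPS and CORVET, by 0.29 (SE 0.06, limma adjusted p = 0.00499). RAB27B and RAB3D are among the Rabs of regulated granule release, and RAB27B is needed for dense granule secretion in mouse platelets. RAB27B read 7.80, 6.95, 4.73 and 6.18 in AD-GE pigs, 8.14, 4.65, 6.37 and 6.995 in AD-GE-RES pigs, and 6.50, 6.27, 7.72 and 7.67 in AD-RES pigs. It read 6.23, 7.49, 6.35 and 5.32 in AD, 7.89, 7.73, 6.44 and 7.61 in CT-GE-RES, and 6.56, 7.004, 8.42 and 6.22 in CT. Animals within AD-GE and within AD-GE-RES differed by over 3 log2 units, the diets overlapped, and CT animal 3, with the highest platelet mean, had the highest RAB27B value.

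These 4 were the members called for the platelet mean, all higher, which is 3.70% of the 108, where 2.63% of all probe sets were called and 2.41% were called higher. Over 34 settings, the one given included, each slope stayed past the threshold, with a range of 1.06 to 1.24 for RAB27B, 0.32 to 0.63 for RAB3D, 0.30 to 0.40 for RAB11A and 0.25 to 0.33 for VPS11. Without the arrays at both ends of the platelet mean they were 1.06, 0.63, 0.30 and 0.28. The markers and these genes come from the same arrays, so a slope describes animals that varied together and not a change in any cell.

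**Figure D3:**
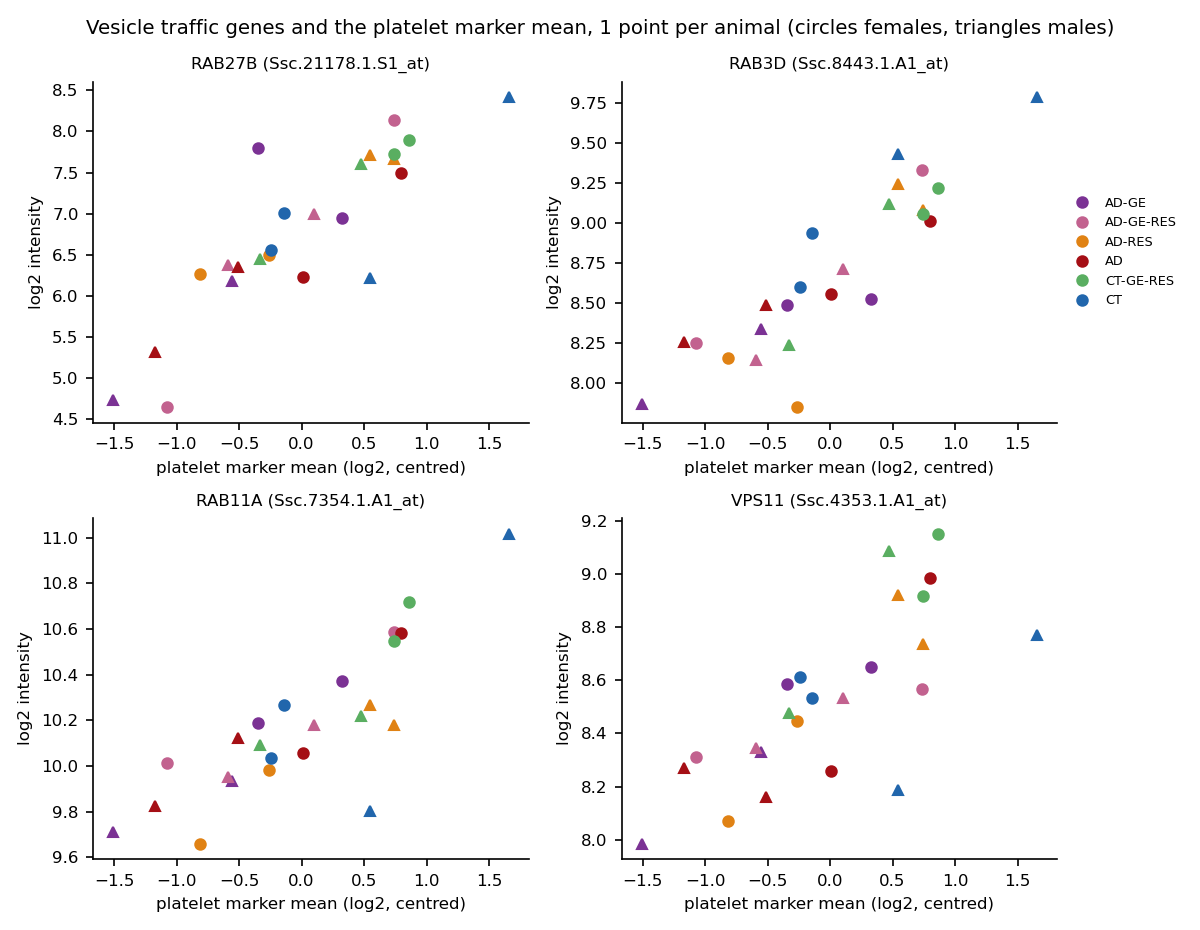
Log2 intensity (y axes) of RAB27B, RAB3D, RAB11A and VPS11 against the mean of the platelet marker genes (x axes, log2, centred on all arrays), 1 point for each of 24 animals, coloured by diet, with circles for females and triangles for males. Over all animals each gene is higher where the platelet mean is higher, and CT animal 3 lies at the far right.

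Monocyte markers gave a second set of relations. limma called 11 members for the monocyte mean, 10 with a positive slope. The 11 are 10.2% of the 108, where 11% of all probe sets were called, 4.98% with a positive and 6.02% with a negative slope. SNX24 had a slope of 0.77 (SE 0.13, limma adjusted p = 0.00132), RAB10 of 0.60 (SE 0.12, limma adjusted p = 0.00310) and CHMP1B of 0.87 (SE 0.20, limma adjusted p = 0.0102). RAB32, which in mouse and human macrophages helps to restrict intracellular bacteria, had 0.53 (SE 0.13), and RAB3D had 0.69 (SE 0.22). ARF2, a class I ARF, had -0.46 (SE 0.12) by one of its probe sets, and in a fit with the B cell mean that probe set had 0.69 (SE 0.14, limma adjusted p = 0.00974). SNX24 had 6.53, 6.38, 7.51 and 7.64 in AD-RES and monocyte means that were low in the first 2 of these animals. The called set rested on few arrays: it was 1 member without AD-GE-RES animal 1, 5 to 7 without any one of AD-GE-RES animals 3 and 4, the AD-RES animals and CT-GE-RES animal 3, and 0 without the 2 arrays farthest from the median, with slopes of 0.74 for SNX24 and 0.61 for RAB10 left.

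**Figure D4:**
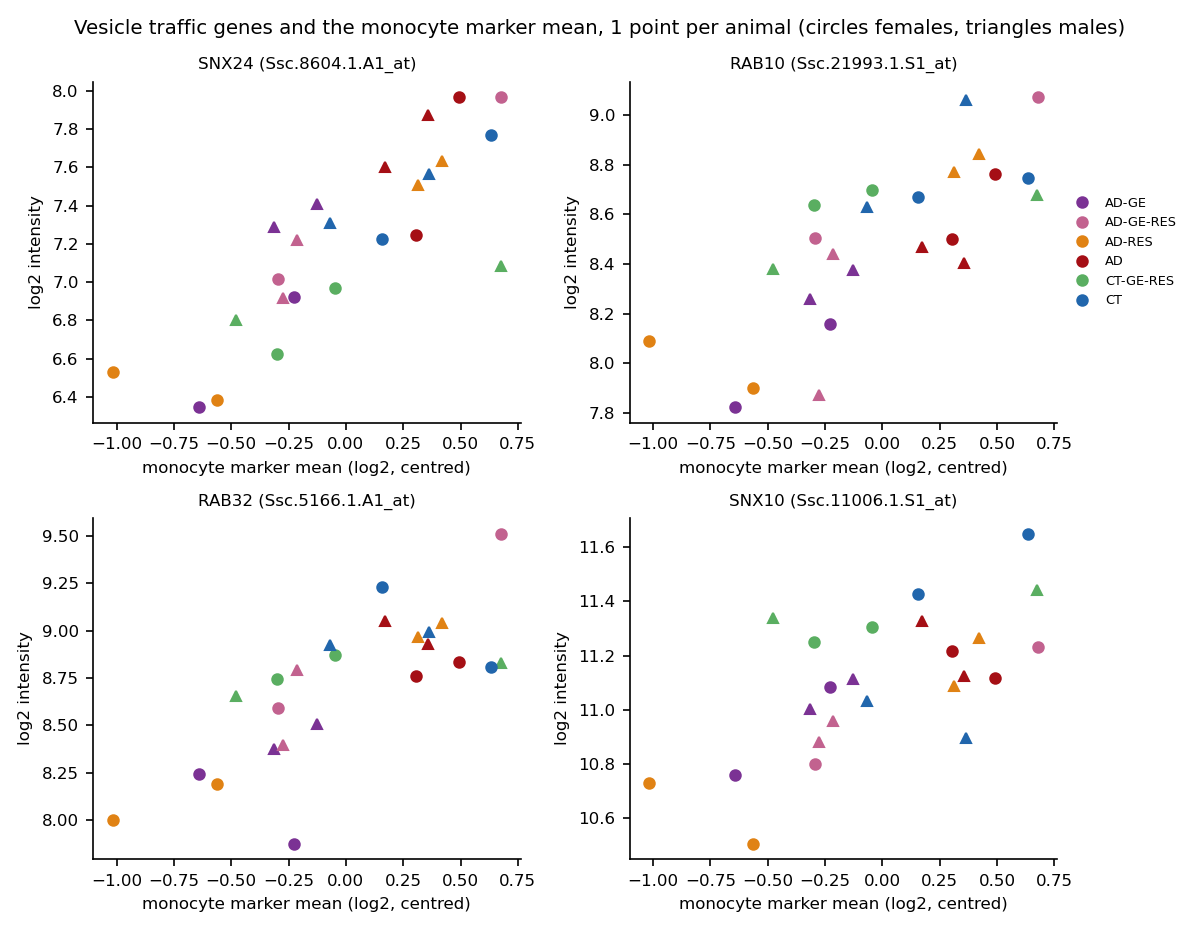
Log2 intensity (y axes) of SNX24, RAB10, RAB32 and SNX10 against the mean of the monocyte marker genes (x axes, log2, centred on all arrays), 1 point for each of 24 animals, coloured by diet, with circles for females and triangles for males. SNX24 and RAB10 are higher where the monocyte mean is higher, with AD-RES animal 1 at the far left.

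For the B cell mean limma called 3 members (2.78%, and 6.41% of all probe sets): ARF2, SNX24 (-0.81, SE 0.22) and VPS52 (0.60, SE 0.17). Other probe sets went the other way, with -0.20 (SE 0.11) for ARF2 and -0.21 (SE 0.15) and -0.03 (SE 0.12) for VPS52. For cytotoxic and NK genes it called RAB3D alone (0.926%, and 1.57% of all), with a slope of -1.76 (SE 0.43). For erythroid genes it called RAB28 (-0.32, SE 0.07), or 0.926% of the members and 2.11% of all probe sets. For neutrophil genes it called VPS26A (-0.62, SE 0.14) and SNX14 (-0.35, SE 0.08), or 1.85% and 1.29%. The B cell, cytotoxic, erythroid and neutrophil counts each reached 0 when single arrays were left out. The T cell mean gave 16 called members (14.8%, and 19.6% of all), 10 with a positive slope, led upward by VPS16 (1.01, SE 0.28) and VPS28 (1.00, SE 0.27) and downward by RAB3D (-1.68, SE 0.44) and SNX24 (-1.54, SE 0.31). Of all probe sets 12.1% were called with a positive slope and 7.49% with a negative one. Without the 2 arrays farthest from the median T cell mean 6 members were called: the slopes of VPS16 (0.80, limma adjusted p = 0.311), VPS28 (0.83, limma adjusted p = 0.16) and RAB3D (-2.42, limma adjusted p = 0.051) then missed the threshold, and that of SNX24 was -2.03 (limma adjusted p = 0.0204). The count was 10 without CT-GE-RES animal 3, and VPS28 had 0.51 (limma adjusted p = 0.175) without CT animal 4. One RAB1A probe set, with a slope of -0.895 (SE 0.21) there, had 0.017 without a term for the 3'/5' ratio.

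The 3'/5' ratio itself went with 16 members, or 14.8%, where limma called 11.5% of all probe sets. Of these members, 4 were higher and 12 lower on arrays of higher ratio, where 3.24% of all probe sets were called higher and 8.29% lower. The largest slope was that of a RAB32 probe set, -0.61 for each unit of the ratio (SE 0.07, limma adjusted p = 3.29e-06). ARF5, a Golgi ARF, had -0.39 (SE 0.05), VPS16 -0.36 (SE 0.08), RAB4B, a recycling Rab, -0.33 (SE 0.06), and VPS28 -0.29 (SE 0.08). RAB8A had 0.32 (SE 0.07) and RAB11B 0.19 (SE 0.03, limma adjusted p = 0.000334). Without the 2 arrays farthest from the median ratio the slope of VPS28 was -0.12 (limma adjusted p = 0.23), and without CT animal 4 alone it was -0.17 (limma adjusted p = 0.0668). The other RAB32 probe set had a ratio slope of 0.01 (SE 0.08). With the monocyte mean both had positive slopes, 0.53 (limma adjusted p = 0.0166) for this one and 0.39 (limma adjusted p = 0.0625) for the first, and the differences between the 2 probe sets were not tested. Of the 29 genes with at least 2 probe sets tested, all probe sets agreed in sign for 14 in the comparison of atherogenic with chow diets and for 17 in AD-GE against AD.

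**Figure D5:**
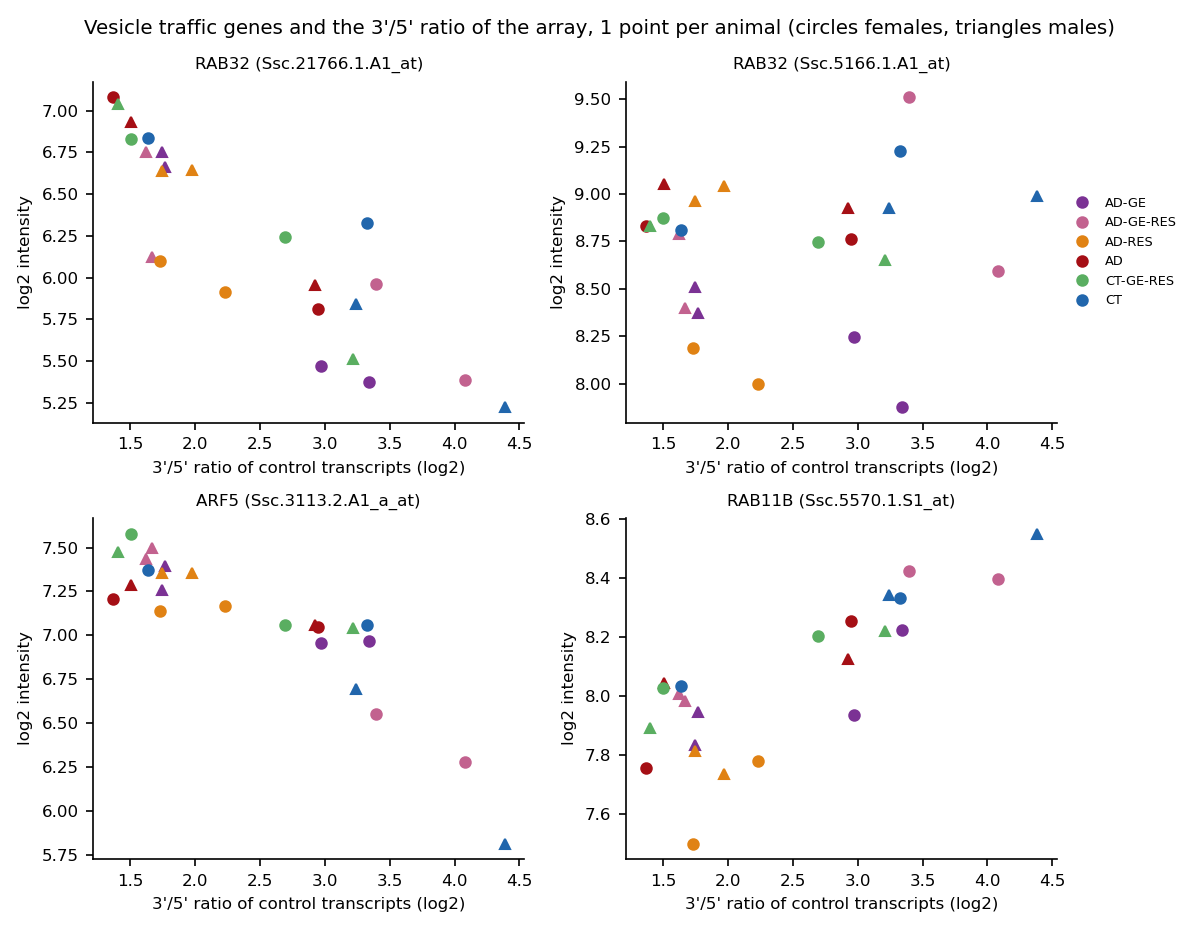
Log2 intensity (y axes) of both RAB32 probe sets, ARF5 and RAB11B against the 3'/5' ratio of each array (x axes, log2), 1 point for each of 24 animals, coloured by diet, with circles for females and triangles for males. The first RAB32 probe set and ARF5 are lower and RAB11B higher on arrays of higher ratio, and CT animal 4 lies at the far right.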

How the data were processed

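Gene expression was measured on 24 Affymetrix porcine arrays, 1 for each pig. The authors deposited a linear intensity for each probe set of an array, with array medians from 38.6 to 41.2. RMA and GCOS are named per the submitters' processing notes; which step each did, and in which version, is not given in the sources used here. Precision is limited by how many arrays there are. Of 24123 probe sets, 124 controls were set aside, and the lowest 25% by mean over all arrays (log2 under 3.57) were left out, leaving 17999. Symbols came from the platform annotation, which can be old, and 114 of the 116 member IDs matched RefSeq genes. A probe set listing RAB6A with itself was not a member. No sequences or positions were used here.

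A linear model of 6 group means and sex was fitted in R 4.3.3 to log2 intensities of the 24 arrays, using lmFit and eBayes of limma 3.58.1. Any difference among diets was a moderated F test, the other p-values are two-sided, and adjusted p-values are Benjamini-Hochberg over 17999 probe sets, with a threshold of 0.05. Sex by diet came from a fit with 12 diet and sex groups. Slopes came from fits with group, sex, the 3'/5' ratio (the mean log2 ratio of 3' to 5' control probe sets of GAPDH, actin and EF1A) and 1 marker list mean at a time. The p-values measure the spread between animals. Alternatives changed the filter, normalization, array weights, sex term, probe set averaging, covariates and arrays used, and the monocyte and platelet covariates and the fit without CT animal 4 and AD-GE-RES animal 1 were added after the data were seen. The scripts were tested on simulated data. Figures were drawn with matplotlib 3.10.9.

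The members, lists and tests were chosen with earlier results of these data known. By rule the text names, in each of the 5 comparisons, the 5 higher and 5 lower members of smallest p, or a part of these. For the tests of any diet, atherogenic diet, sex and sex by diet it names the 4 of smallest p. For each slope it names called members, and for the panel the levels. Members of p under 0.05 on the atherogenic diets beyond those 4, and members without overlap, were named after their values were seen.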

Additional observations from a re-analysis of the deposited data

Results flagged for a closer look

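Within a group of 4, 1 animal stood apart from the other 3 by Dixon's test in 17 of 276 tests over 46 probe sets, and chance gives about 1 in 20. CT animal 4, the array of highest 3'/5' ratio, read 7.68 for VPS28, where the other CT animals had 9.04 to 9.27, and 9.73 for CHMP2A, where they had 10.50 to 10.55. CT animal 1 read 10.29 for SNX6, where the others had 9.87 to 9.91. CT-GE-RES animal 3 read 8.24 for RAB3D, where the others had 9.06 to 9.22, and 7.84 for RAB19, where they had 7.09 to 7.17. CT-GE-RES animal 1 read 5.69 for RAB9A and 8.86 for VPS16.

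AD-GE-RES animal 3 read 7.52 for RAB1A, where the others had 8.22 to 8.28, and 8.90 for RAB24, where they had 8.35 to 8.37. AD-GE-RES animal 2 read 6.46 for RAB35. AD animal 2 read 8.82 for CHMP5, where the others had 8.56 to 8.59, and 4.31 for VPS26A. AD animal 4 read 3.94 for VPS52. AD-GE animal 1 read 9.45 for RAB7A, where the others had 9.20 to 9.24. AD-RES animal 1 read 10.81 for ARF1 and 9.49 for VPS26A, and AD-RES animal 3 read 9.15 for VPS28, where the others had 9.25 to 9.26. What set these values apart was not tested.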

How the results depend on the processing

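Of 2629 values of named genes under the alternatives, 2429 kept their direction and side of the threshold, 188 lost the call, 10 gained one and 2 turned sign: one VPS16 probe set in AD-GE-RES against AD, -0.042 as the mean of its probe sets, and one RAB1A probe set with the T cell mean, 0.017 without the ratio. The causes were not tested. No alternative gave a called member in the 5 comparisons or the comparison of the extract between diets. No paired analysis was possible because replicate numbers only name animals in accession order. Of 749 counts, 594 stayed within 1.5 times the main count. The share of all probe sets with an adjusted p under 0.05 was not tallied for the alternatives.

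Counts at an unadjusted p under 0.05 moved as follows. AD against CT had 2, and 4 with the monocyte mean. AD-GE against AD had 10, and 16 with array weights, 18 with only the 2 groups and 6 with the monocyte mean. AD-GE-RES against AD had 1, and 2 with no filter, quantile normalization, array weights, only the 2 groups, or the monocyte or platelet mean, and 5 without CT animal 4 and AD-GE-RES animal 1. AD-RES against AD had 8, and 5 by gene means. CT-GE-RES against CT had 6, and 3 with array weights or only the 2 groups. Atherogenic against chow had 24, and 13 by gene means, and with the monocyte mean 2 members were called. The extract between diets had 4, and 2 with quantile normalization, centring or without CT animal 4 and AD-GE-RES animal 1, 1 with array weights and 0 with the ratio. Any diet had 11, and 30 with array weights (3 called) and 6 by gene means. Males against females had 7, and 21 with array weights (3 called) and 2 by gene means.

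Called slopes moved as follows. The ratio had 16, and 9 by gene means. Monocyte had 11, and 17 with no diet terms, 7 without the ratio or by gene means and 0 without the 2 farthest arrays. T cell had 16, and 6 without the 2 farthest arrays and 9 by gene means. B cell had 3, and 6 with array weights or without the 2 farthest arrays and 1 by gene means. Cytotoxic had 1, and 2 with quantile normalization, array weights or no diet terms, 4 without the ratio and 0 without the 2 farthest. Platelet had 4, and 8 with no diet terms. Erythroid had 1, and 2 with no filter, 3 with array weights or without the ratio, 4 with no diet terms and 0 without the 2 farthest. Neutrophil had 2, and 1 with the lower 50% left out, quantile normalization or gene means and 0 with array weights.

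With each animal left out in turn, counts at an unadjusted p under 0.05 ran from 3 to 14 for AD against CT (14 without CT 1), 8 to 15 for AD-GE against AD (15 without AD 1), 1 to 5 for AD-GE-RES against AD (5 without AD-GE-RES 1), 3 to 10 for AD-RES against AD (3 without AD 2) and 3 to 13 for CT-GE-RES against CT (13 without CT 1, 3 without CT 4). They ran from 16 to 27 for atherogenic against chow (0 to 2 called, 2 without AD-GE-RES 2), 1 to 12 for the extract between diets, 7 to 16 for any diet, 4 to 10 for males against females and 11 to 26 for sex by diet (0 to 6 called, 6 without CT 3). Called slopes ran from 12 to 19 for the ratio, 1 to 15 for monocyte, 10 to 19 for T cell, 0 to 7 for B cell, 0 to 8 for cytotoxic, 4 to 5 for platelet, 0 to 4 for erythroid and 0 to 3 for neutrophil.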
